A study of Mus musculus with 112 samples.

Results

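Lncenc1 (ENSMUSG00000078952) is a long noncoding RNA (lncRNA) of mouse embryonic stem cells (ESCs), and its row was followed by gene identifier through 4 tables of lncRNA values. It is 1 of 1279 lncRNAs in the total RNA tables of each cell line, 1 of 1246 in the polyadenylated (polyA) RNA table and 1 of 492 in the table of newly made RNA, and 1 of 1624 lncRNAs over all tables. RefSeq lists linc-Enc1 and Platr18 among its older names. In naive mouse ESCs Lncenc1 is known as an RNA needed for self-renewal, acting on genes of glycolysis together with the RNA-binding proteins PTBP1 and HNRNPK.

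U1 snRNP is the particle that recognises 5′ splice sites through its U1 RNA and the protein SNRNP70, and it also guards long transcripts against early polyadenylation. U2 snRNP recognises the branch point in the next step of splicing. The series asked how lncRNAs are distributed between chromatin and the soluble parts of the cell when U1 snRNP is blocked or lost. RNA held on chromatin includes transcripts still being made, and cytoplasmic RNA is mostly finished transcripts.

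The first cell line was 46C, an ESC line of 129/Ola origin. It was nucleofected with antisense morpholino oligonucleotides (AMOs) against U1 (75 µM), U2 (75 µM) or both (50 µM U1+U2 AMO), or with 75 µM of a scrambled control AMO, and taken 2 h later. The second was a derivative of 46C in which SNRNP70 carries an auxin-inducible degron (AID), treated with 500 µM indole-3-acetic acid (IAA) for 4 h or left at 0 h. All AID libraries, the 0 h ones included, therefore carry the tagged protein. For newly made RNA (SLAM-seq), AID cells had 2 h of IAA and then 3 h of IAA with 4-thiouridine, against 3 h of 4-thiouridine without IAA. Cells were separated into chromatin, cytoplasm and nucleoplasm, each mixed with spike-in RNA, or used whole. The labels give 3 libraries to each group, and all were used except in whole cells with control AMO, where 2 were: a further control AMO column, numbered 3, names no fraction and was left out. Whether libraries of a group were separate cultures is not stated, and p-values therefore cover only the spread among these libraries, which may be technical.

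The labelled cell type was checked against its markers. The ESC list held 38 symbols, among them Platr18, an older name of Lncenc1. Matched by current symbol only, 23 ESC lncRNAs were present (Lncenc1, 21 Platr genes and Panct2). They summed to 218 FPKM in control AMO whole cells, and to 155 FPKM without Lncenc1. Of 13 listed lncRNAs of differentiated cells, 5 were present (Mir124a-1hg, Bvht, Hotairm1, Miat and Xist), and they summed to 9.34 FPKM. In 0 h AID whole cells the sums were 310 FPKM (194 FPKM without Lncenc1) and 17.7 FPKM. The ESC and differentiated sums cover unlike numbers of genes. Xist had 0.035 FPKM in control AMO and 0.0233 FPKM in 0 h AID whole cells, and its level alone does not tell the state of the cells. Snrnp70 and the U1 and U2 RNAs are not lncRNA entries, so the targets themselves were not analysed here. Read depth behind FPKM values is unknown. Over the 492 lncRNAs measured, the SLAM-seq libraries held 24927 to 227237 recovered T>C reads each, which is not their full depth. The highest, chromatin library 2 without IAA, was left out of the test on recovered reads for too few low values.

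On GRCm38.p6, RefSeq places Lncenc1 on the plus strand of chromosome 13 from 97434970 to 97497664, a span of 62695 bases with 3 annotated transcripts. Enc1, the protein-coding gene it is named after, ends 181930 bases upstream, and the pseudogene Gm8756 (97457947 to 97459074) lies within the span. Whether the values count 1 strand only is not given in the sources used here, so reads from transcripts that overlap Lncenc1 cannot be told apart from its own. The promoter window of RefSeq runs 250 bases before and 50 after the gene start (chr13:97434720-97435019, plus strand). It is shown as the sequence at hand around the gene start, and was searched for 5′ splice site cores and polyadenylation signals among other motifs. Capitals mark matches to the motifs searched. These were GGTAAG and the like core GGTGAG of 5′ splice sites, the polyadenylation signal AATAAA and the start element TATAAA, each on the gene's strand, and the octamer ATGCAAAT on both strands.
Lncenc1 promoter: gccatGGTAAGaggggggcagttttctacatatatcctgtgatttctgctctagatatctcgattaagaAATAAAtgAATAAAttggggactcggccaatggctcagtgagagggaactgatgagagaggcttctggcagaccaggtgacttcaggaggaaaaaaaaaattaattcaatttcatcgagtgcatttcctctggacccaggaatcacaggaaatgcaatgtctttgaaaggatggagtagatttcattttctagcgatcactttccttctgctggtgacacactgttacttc
The window held 1 GGTAAG, at position -245, and 2 AATAAA, at -181 and -173, all before the start. These matches lie in DNA outside the annotated Lncenc1 gene, so they are not shown to be part of its RNA. GGTAAG occurred in 5.65% and AATAAA in 11.3% of 32851 promoter windows of the same length. GGTGAG (11% of windows), TATAAA (8.32%) and ATGCAAAT (1.74%) had no match in the window. None of these motifs overlapped another there.

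In cells with control AMO and in AID cells at 0 h, Lncenc1 was among the most abundant lncRNAs. Its level was higher in cytoplasm than on chromatin or in nucleoplasm. In control AMO cells it had 83.95, 90.04 and 89.00 FPKM on chromatin, 191.55, 161.31 and 204.46 FPKM in cytoplasm, and 49.77, 33.50 and 41.41 FPKM in nucleoplasm. All cytoplasmic libraries lay above all chromatin libraries, and these above all nucleoplasmic ones. Whole cells with control AMO had 61.84 and 63.81 FPKM. By mean, Lncenc1 ranked 30 of 1279 lncRNAs on chromatin and 33 in whole cells. On the FPKM scale, which is per length, its neighbours on chromatin were Hist2h2bb and Gm26853 above it (105 ± 32.2 and 91.9 ± 12.4 FPKM) and Gm37110 and Neat1 below it (85.9 ± 8.38 and 82.0 ± 5.46). Against 87.7 ± 3.26 FPKM for Lncenc1 (SD, n = 3), the SD ranges of all 4 met its own. Malat1, the abundant RNA of nuclear speckles, had 831 ± 140.0 FPKM there. In cytoplasm with control AMO it had 1348 ± 137 FPKM, so Malat1 too was higher in cytoplasm than on chromatin. In 0 h AID cells Malat1 had 274 ± 31.7 FPKM in cytoplasm and 1286 ± 119 FPKM on chromatin. Neat1 was lower in cytoplasm than on chromatin with control AMO, at 15.6 ± 1.12 FPKM. The part of fraction scaling or purity in these orders was not tested.

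In 0 h AID cells Lncenc1 had 109.52, 84.78 and 87.42 FPKM on chromatin, 191.90, 184.58 and 165.88 FPKM in cytoplasm and 98.07, 88.33 and 80.86 FPKM in nucleoplasm. Here chromatin and nucleoplasm overlapped, and cytoplasm was above both. It ranked 24 on chromatin, 13 in cytoplasm and 16 in whole cells (116 ± 6.09 FPKM, against 121 ± 9.92 FPKM for the snoRNA host Gas5 just above it and 105 ± 35.9 FPKM for Gm37746 just below).

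Chromatin was compared with cytoplasm in limma, on log2 of FPKM plus a small constant, with Benjamini-Hochberg adjustment over all lncRNAs tested and a threshold of 0.05. Lncenc1 was lower on chromatin than in cytoplasm by a log2 difference of -1.08 ± 0.23 (SE) in control AMO cells (adjusted p = 0.00163) and of -0.95 ± 0.15 in 0 h AID cells (adjusted p = 0.000154). The median lncRNA differed the other way, by 0.52 in control AMO cells and 2.16 in 0 h AID cells, and 25.1% and 15.1% of lncRNAs tested were lower on chromatin by the same rule. Centring each library on its median lncRNA made the difference -1.41 in control AMO cells, with 410 lncRNAs lower and 472 higher, against 319 and 566 before. In 0 h AID cells it made it -2.98 (adjusted p = 1.27e-08), with 474 lower and 510 higher, against 192 and 867 before. Nucleoplasm was also below cytoplasm, by -2.17 in control AMO cells (67.9% of lncRNAs lower) and -1.02 in 0 h AID cells (15.8% lower). After centring these were -0.63 (adjusted p = 0.0129; 223 lncRNAs lower and 380 higher, against 862 and 0 before) and -1.33 (260 lower and 281 higher, against 201 and 393). Chromatin against nucleoplasm depended on scaling: the log2 difference was 1.09 ± 0.23 in control AMO cells (adjusted p = 0.00109; 78.9% of lncRNAs higher) on the spike-in scale, and -0.78 (adjusted p = 0.00476; 299 lncRNAs lower and 165 higher, against 18 and 1001 before) after centring. In 0 h AID cells it was 0.07 ± 0.15 (adjusted p = 0.700) on the spike-in scale and -1.65 (adjusted p = 1.11e-06) after centring, with 464 lncRNAs lower and 343 higher, against 89 and 828 before. Comparisons between fractions rest on the authors' scaling making them comparable.

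In limma fits that did not pair libraries, Lncenc1 fell on chromatin with U1 AMO and with U1+U2 AMO, and in no other fraction did an AMO pass the test against control AMO. With the replicate number as a block, U2 AMO passed on chromatin as well (limma adjusted p = 0.0041). On chromatin the U1 AMO libraries had 30.97, 42.21 and 37.03 FPKM, against 83.95, 90.04 and 89.00 FPKM with control AMO. The groups were far apart, and the U1 AMO mean (36.7 ± 5.63 FPKM) was 41.9% of the control mean (87.7 ± 3.26; SD, n = 3 each). The log2 change was -1.26 ± 0.19 (SE; limma adjusted p = 0.000225). Of 1256 lncRNAs tested, 51.8% fell by the same rule, and their median change was -0.80, so the change of Lncenc1 was 0.46 below the median, and 21.7% of lncRNAs fell further. After centring each library on its median the change was -0.42 (adjusted p = 0.0156), and 145 lncRNAs fell and 226 rose, against 651 and 64 before. Less RNA per cell and fewer cells of a type cannot be told apart in such bulk samples.

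With U1+U2 AMO the chromatin libraries had 34.56, 45.51 and 39.03 FPKM. They too lay below every control library, and their mean was 45.3% of the control mean. The log2 change was -1.15 ± 0.19 (adjusted p = 0.000533), with 49.2% of lncRNAs falling and a median of -0.74, and -0.35 after centring (adjusted p = 0.0429). Centring left 103 lncRNAs lower and 188 higher, against 618 and 48 before.

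With U2 AMO the chromatin libraries had 48.76, 72.22 and 55.86 FPKM, again all below the control libraries but spread more widely. The mean of 58.9 ± 12.0 FPKM was 67.2% of the control mean, and the log2 change of -0.59 ± 0.19 missed the threshold (adjusted p = 0.0763; 5.02% of lncRNAs fell, median -0.14). After centring it was -0.35 (adjusted p = 0.0651), with 47 lncRNAs lower and 100 higher, against 63 and 35 before. With the replicate number as a block, which pairs these chromatin libraries, the adjusted p was 0.0041, and without U2 AMO library 2, the highest, the change was -0.75 (adjusted p = 0.0378). The count of lncRNAs called in either direction, 98 in all, was 58 without U2 AMO library 1, 51 without U2 AMO library 3, 40 without control library 1 and 51 without control library 3. The 3 treatments share the control libraries, so their changes are not independent of each other.

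Set directly against U2 AMO at the same 75 µM, U1 AMO left less Lncenc1 on chromatin, with a log2 difference of -0.67 ± 0.19 (adjusted p = 0.0127). By the same rule 40% of lncRNAs were lower, with a median of -0.58. The call was lost without U1 AMO library 1 (-0.55, adjusted p = 0.0581) or U2 AMO library 2 (-0.52, adjusted p = 0.0558), and after centring the difference was -0.07 (adjusted p = 0.699), with 157 lncRNAs lower and 197 higher, against 503 and 67 before. U1+U2 AMO, at the lower dose of 50 µM, differed from U2 AMO by -0.56 ± 0.19 (adjusted p = 0.0338; 35.4% of lncRNAs lower). That call was lost without U2 AMO library 2 (-0.40, adjusted p = 0.135) or 3 (-0.59, adjusted p = 0.0645), or U1+U2 AMO library 1 (-0.46, adjusted p = 0.109) or 3 (-0.55, adjusted p = 0.0791). It was lost after centring too, where the difference was 0.0030 (adjusted p = 0.988) and 127 lncRNAs were lower and 163 higher, against 444 and 51 before. Without U2 AMO library 2, 321 lncRNAs were called in either direction, against 495 with it. U1+U2 AMO and U1 AMO overlapped on chromatin, and their log2 difference was 0.11 with a 95% interval of -0.29 to 0.52 (adjusted p = 0.999).

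**Figure D1:**
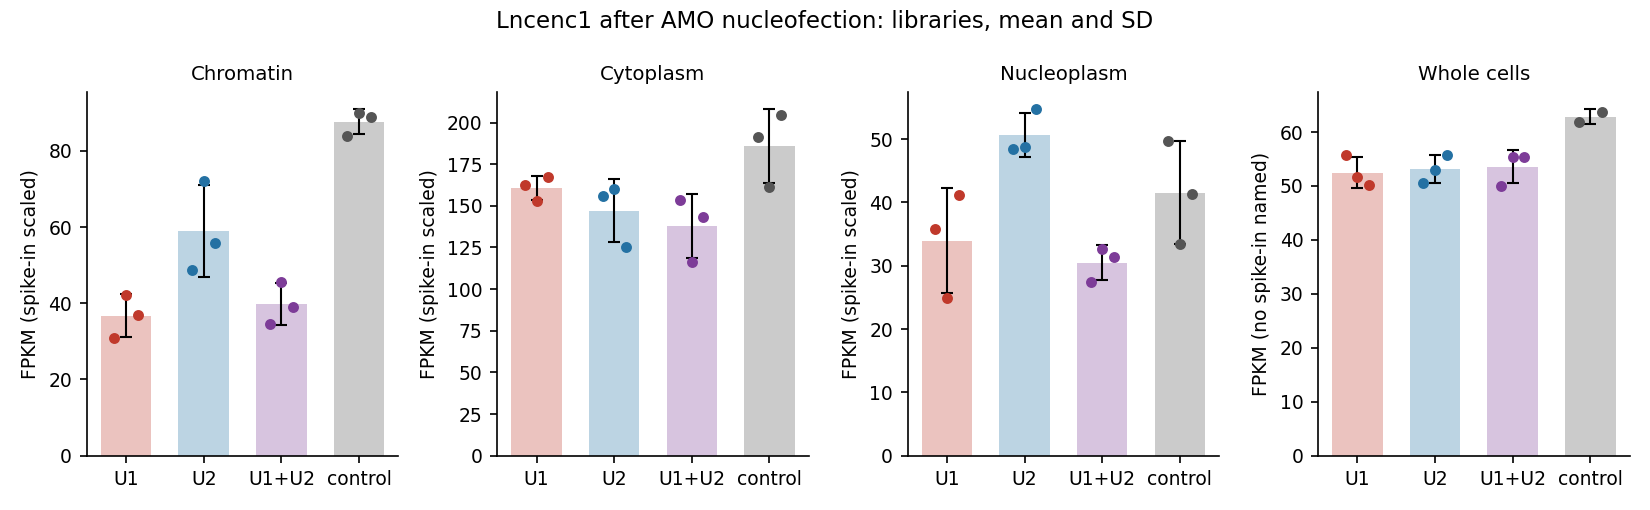
Lncenc1 in every library of the AMO experiment, in FPKM, for chromatin, cytoplasm, nucleoplasm and whole cells (points: libraries; bars: means; error bars: SD; n = 3, and 2 for whole cells with control AMO). On chromatin all U1 AMO libraries (30.97 to 42.21 FPKM), U2 AMO libraries (48.76 to 72.22) and U1+U2 AMO libraries (34.56 to 45.51) lie below the control AMO libraries (83.95 to 90.04).

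The soluble fractions of the same cells gave smaller differences. In cytoplasm Lncenc1 had 162.51, 152.64 and 166.99 FPKM with U1 AMO, 155.63, 160.32 and 125.20 FPKM with U2 AMO and 153.77, 116.22 and 143.24 FPKM with U1+U2 AMO, against 191.55, 161.31 and 204.46 FPKM with control AMO. U1 AMO overlapped the control, while all U2 AMO and U1+U2 AMO libraries lay below the lowest control library. The margin was small for the highest U2 AMO library (160.32 against 161.31 FPKM). By mean, U2 AMO had 79.2% and U1+U2 AMO 74.1% of the control level. The log2 changes were -0.20 for U1 AMO (95% interval -0.61 to 0.20; adjusted p = 0.591), -0.34 for U2 AMO (-0.74 to 0.06; adjusted p = 0.425) and -0.43 for U1+U2 AMO (-0.84 to -0.03; adjusted p = 0.170). The medians of all lncRNAs there were -0.20, -0.16 and -0.28 in the same order.

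In nucleoplasm Lncenc1 had 35.79, 24.86 and 41.11 FPKM with U1 AMO, 48.48, 48.73 and 54.71 FPKM with U2 AMO and 27.42, 32.62 and 31.46 FPKM with U1+U2 AMO, against 49.77, 33.50 and 41.41 FPKM with control AMO. Both groups that held U1 AMO were below every U2 AMO library. The log2 changes against control were -0.30 for U1 AMO (adjusted p = 0.499), 0.30 for U2 AMO (adjusted p = 0.431) and -0.43 for U1+U2 AMO (adjusted p = 0.317); that of U2 AMO was -0.21 after centring, where the median of all lncRNAs had been 0.45. U1 AMO against U2 AMO gave -0.60 (adjusted p = 0.103), and 0.0469 with the replicate number as a block, which pairs these nucleoplasm libraries. U1+U2 AMO against U2 AMO gave -0.73 (adjusted p = 0.0451; 30.3% of lncRNAs lower), a call lost when any 1 of the 6 libraries was left out (adjusted p 0.0684 to 0.140; -0.78 to -0.66) and after centring (-0.18, adjusted p = 0.527; 118 lncRNAs lower and 91 higher, against 346 and 15 before). The count called there in either direction, 361 in all, was 237 without U1+U2 AMO library 1 and 218 without U2 AMO library 1.

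Whole cells had 55.69, 51.60 and 50.21 FPKM with U1 AMO, 50.64, 52.95 and 55.81 FPKM with U2 AMO and 50.06, 55.33 and 55.44 FPKM with U1+U2 AMO, against 61.84 and 63.81 FPKM with control AMO. All treated libraries were below both control libraries. The log2 changes of -0.26, -0.24 and -0.23 did not pass the threshold (adjusted p = 0.150, 0.284 and 0.219), with only 2 control libraries.

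The fall on chromatin was larger than the change in the soluble fractions for U1 AMO. This shift (log2 change on chromatin, less the average of the cytoplasmic and nucleoplasmic ones) was -1.01 ± 0.24 (adjusted p = 0.00729; 19.7% of lncRNAs lower, median -0.66). It was -0.72 ± 0.24 for U1+U2 AMO (adjusted p = 0.0569; 0.0414 without U1+U2 AMO cytoplasm library 2 and 0.0346 without control AMO nucleoplasm library 1). For U2 AMO it was -0.57 ± 0.24 (adjusted p = 0.263). The shifts of U1 AMO and U2 AMO differed by -0.44 (95% interval -0.92 to 0.05; adjusted p = 0.337), so they were not shown to differ. After centring, the U1 AMO shift was -0.17 (adjusted p = 0.709), with 3 lncRNAs lower and 10 higher, against 252 and 1 before. Leaving out a chromatin library moved the count of shifts called in either direction from 253 to 104 (U1 AMO library 1), 148 (control library 1) or 115 (control library 3).

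Shares of summed FPKM give the distribution of the RNA in the cell only if the authors' scaling makes the fractions comparable. As shares of the sum of chromatin, cytoplasm and nucleoplasm, chromatin held 15.9 ± 2.94% of Lncenc1 with U1 AMO, 22.9 ± 3.27% with U2 AMO and 19.2 ± 3.79% with U1+U2 AMO, against 28.0 ± 3.15% with control AMO (SD over 3 sets of libraries with the same number). Each treated set was below every control set, and the exact two-sided permutation p was 0.1 for each, the smallest that 3 against 3 allows. Cytoplasm held 69.5 ± 1.38% with U1 AMO, 57.2 ± 4.23% with U2 AMO and 66.0 ± 5.80% with U1+U2 AMO, against 58.9 ± 2.21% with control AMO. Only U1 AMO stood clear of the control in cytoplasm (exact p = 0.1; 0.7 for U2 AMO and 0.2 for U1+U2 AMO). Nucleoplasm held 14.6 ± 2.87%, 19.9 ± 3.01% and 14.7 ± 2.04% with U1, U2 and U1+U2 AMO, against 13.1 ± 1.89% with control AMO, and there only U2 AMO stood clear (exact p = 0.1). The sum itself was 219.71 to 245.13 FPKM with U1 AMO, 235.77 to 281.27 FPKM with U2 AMO and 194.35 to 215.75 FPKM with U1+U2 AMO, against 284.85 to 334.87 FPKM with control AMO.

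**Figure D2:**
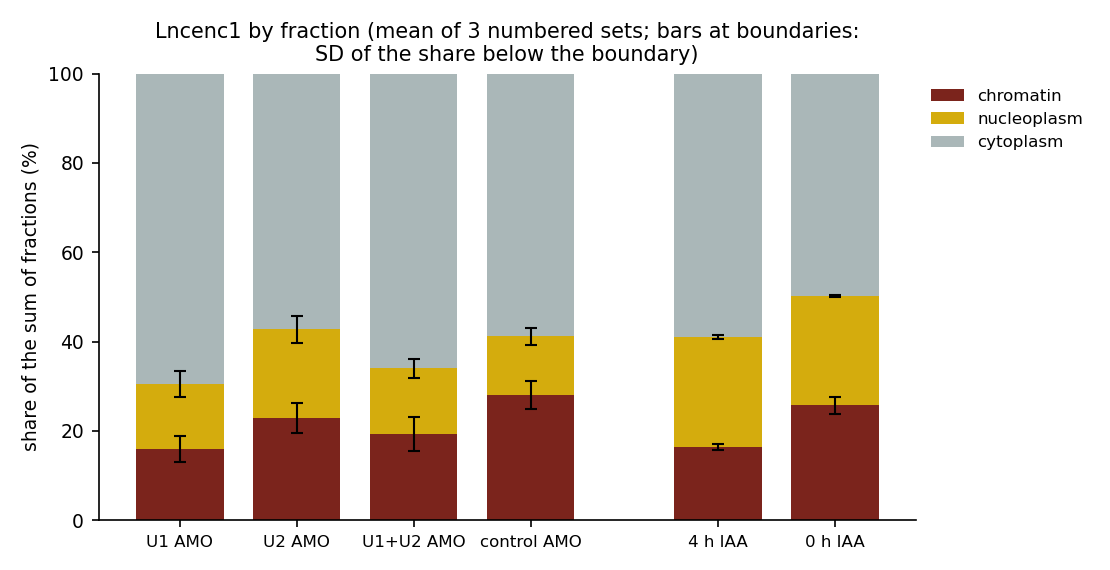
Share of Lncenc1 (%) on chromatin, in nucleoplasm and in cytoplasm, stacked to the sum of the fractions, as the mean of 3 numbered sets of libraries for each treatment; error bars are the SD of the share that ends at that boundary. The chromatin share is 15.9% with U1 AMO against 28.0% with control AMO, and 16.4% at 4 h of IAA against 25.8% at 0 h. Shares are of summed FPKM and rest on the authors' scaling making the fractions comparable.

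In the AID line, where IAA acts to degrade SNRNP70, limma fits of total RNA that did not pair libraries called Lncenc1 lower on chromatin only. With the replicate number as a block, nucleoplasm passed as well (limma adjusted p = 0.0451), though numbers were not taken to pair libraries there. Chromatin libraries had 52.80, 48.10 and 44.31 FPKM of Lncenc1 at 4 h of IAA, against 109.52, 84.78 and 87.42 FPKM at 0 h. The groups did not overlap, and the mean of 48.4 ± 4.25 FPKM was 51.5% of the 93.9 ± 13.6 FPKM at 0 h (SD, n = 3 each). The log2 change was -0.95 ± 0.17 (adjusted p = 0.0011), where 46.7% of 1260 lncRNAs fell, the median was -0.65 and 34.0% of lncRNAs fell further than Lncenc1. After centring, the change was -0.21 (adjusted p = 0.0977), and 210 lncRNAs fell and 265 rose, against 588 and 40 before.

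Cytoplasm had 188.77, 180.79 and 154.09 FPKM at 4 h, against 191.90, 184.58 and 165.88 FPKM at 0 h, and the groups overlapped closely. The log2 change was -0.05 with a 95% interval of -0.38 to 0.27 (adjusted p = 0.898), and 0.0022 after centring. Nucleoplasm had 78.43, 77.06 and 64.17 FPKM at 4 h, against 98.07, 88.33 and 80.86 FPKM at 0 h, without overlap, and the change of -0.28 (-0.64 to 0.07) did not pass (adjusted p = 0.244). Whole cells had 111.13, 110.14 and 112.19 FPKM at 4 h, against 109.58, 116.69 and 121.70 FPKM at 0 h, a log2 change of -0.06 (-0.25 to 0.13; adjusted p = 0.671). The summed level of the 5 lncRNAs of differentiated cells was 28.35 to 30.06 FPKM in these whole cells at 4 h and 16.34 to 19.79 FPKM at 0 h, while on chromatin it was 31.72 to 40.31 FPKM at 4 h and 34.05 to 42.89 FPKM at 0 h. Its part in the Lncenc1 values was not tested.

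The shift of chromatin against the soluble fractions was -0.78 ± 0.17 (adjusted p = 0.00528; 19.2% of lncRNAs lower, median -0.57), and -0.17 after centring (adjusted p = 0.403; 45 lncRNAs lower and 23 higher, against 245 and 4 before). The count of shifts called in either direction, 249 in all, was 148 without 4 h chromatin library 3 and 151 without 0 h chromatin library 1. Chromatin held 16.4 ± 0.589% of the sum at 4 h, against 25.8 ± 1.89% at 0 h, and cytoplasm held 58.9 ± 0.211% at 4 h, against 49.8 ± 1.79% at 0 h. In both fractions every 4 h set lay beyond every 0 h set (exact two-sided permutation p = 0.1, the smallest possible). Nucleoplasm held 24.7 ± 0.413% at 4 h and 24.5 ± 0.255% at 0 h, which overlapped (exact p = 0.6).

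In polyA RNA, which leaves out transcripts without a finished 3′ end, Lncenc1 fell further than most lncRNAs. On chromatin it had 70.57, 74.32 and 73.62 FPKM at 4 h, against 204.07, 210.37 and 224.71 FPKM at 0 h. The libraries of each group lay close together and the mean at 4 h was 34.2% of that at 0 h, taking Lncenc1 to rank 29 at 4 h, against rank 15 at 0 h, of 1246. The log2 change was -1.55 ± 0.05 (adjusted p = 2.77e-06). By the same rule 36.8% of 1217 lncRNAs fell, their median was -0.37, 7.97% of lncRNAs fell further, and the change after centring was -1.06 (adjusted p = 1.54e-05), with 201 lncRNAs lower and 232 higher, against 448 and 109 before.

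Whole-cell polyA RNA had 115.11, 121.71 and 121.45 FPKM at 4 h, against 147.21, 148.83 and 151.65 FPKM at 0 h. The groups did not overlap, and the log2 change was -0.32 ± 0.06 (adjusted p = 0.00483; 7.05% of lncRNAs fell and the median was 0.10). After centring 91 lncRNAs fell and 107 rose, against 80 and 147 before. The count called in either direction, 227 in all, was 145 to 148 without library 1 or 2 at 4 h or library 1 or 2 at 0 h. Chromatin changed by -1.22 ± 0.07 more than whole cells (adjusted p = 3.03e-07; 18.4% of lncRNAs lower, median -0.49), and by -0.65 after centring (adjusted p = 0.000685; 21 lncRNAs lower and 9 higher, against 227 and 2 before). PolyA chromatin values were spike-in scaled, while no scaling is named for whole cells, which also contain the chromatin RNA. The difference between chromatin and whole cells therefore mixes unlike scales. Total and polyA tables were normalised separately, so the larger polyA change on chromatin was not tested against the total RNA change of -0.95.

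Newly made Lncenc1 RNA was reduced on chromatin as well. SLAM-seq values, which are spike-in scaled counts of reads with T>C changes, were 154.58, 233.59 and 194.38 on chromatin with IAA, against 495.41, 576.31 and 519.82 without IAA. The groups lay far apart, with a mean of 36.6% of the level without IAA. These values came from 179, 185 and 249 recovered Lncenc1 reads with IAA and from 324, 827 and 354 without IAA, before scaling for depth and spike-in. The log2 change was -1.43 ± 0.18 (limma adjusted p = 3.67e-05), where 33.6% of 423 lncRNAs fell, the median was -0.41 and 13.7% fell further. It was -0.87 after centring (adjusted p = 0.00187; 65 lncRNAs lower and 96 higher, against 142 and 24 before), and -1.39 (adjusted p = 0.000399) in edgeR's quasi-likelihood test on the recovered reads. Lncenc1 ranked 85 of 492 there with IAA, against rank 30 without IAA.

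In cytoplasm newly made polyA Lncenc1 had values of 2272.73, 2754.39 and 2171.97 with IAA, against 3011.98, 3802.26 and 2659.57 without IAA, and the highest library with IAA lay above the lowest without it. The log2 change of -0.39 had a 95% interval of -0.99 to 0.22 (adjusted p = 0.527). Nucleoplasm had 875.40, 1037.77 and 935.59 with IAA, against 1133.51, 1466.80 and 1099.37 without IAA, without overlap. There the change was -0.37 (-0.81 to 0.08; adjusted p = 0.243), and -0.53 after centring (adjusted p = 0.0102), where the median of all lncRNAs had been 0.21. The shift was -1.05 ± 0.28 (adjusted p = 0.0207; 4.88% of 492 lncRNAs lower). It lost its call without chromatin library 2 or 3 of the cells without IAA (-0.99, adjusted p = 0.0768; -1.07, adjusted p = 0.0518), without chromatin library 1 with IAA (-0.91, adjusted p = 0.0847), and after centring (-0.36, adjusted p = 0.490; 8 lncRNAs lower and 3 higher, against 24 and 0 before). The count of shifts called was 15 without chromatin library 1 with IAA, 15 without chromatin library 3 of the cells without IAA, and 59 without their cytoplasm library 2. Chromatin was total RNA and the soluble fractions polyA RNA in SLAM-seq, so kind of RNA and fraction cannot be told apart in this shift. Without IAA, nucleoplasm was below cytoplasm by -1.35 ± 0.30 (adjusted p = 0.00132; 15.6% of lncRNAs lower), and by -1.09 after centring, with 75 lncRNAs lower and 81 higher, against 74 and 44 before. The count called in either direction, 118 in all, was 62, 52 and 51 without nucleoplasm library 1, 2 and 3.

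**Figure D3:**
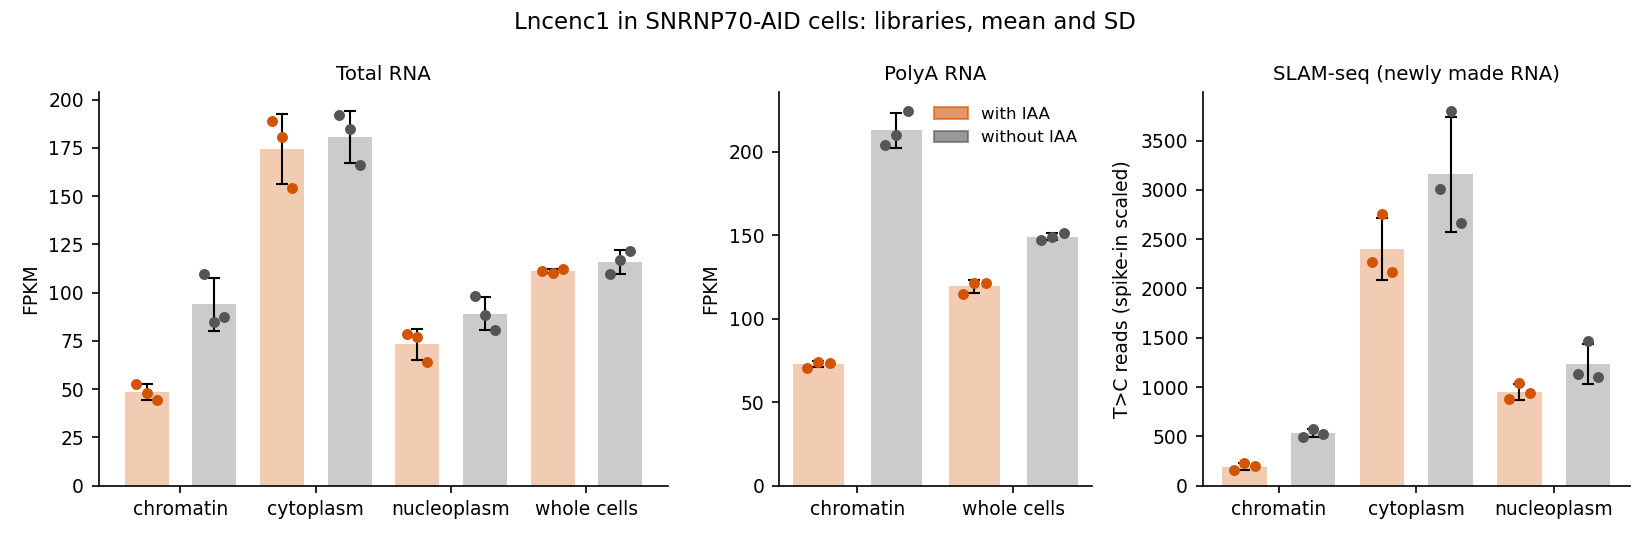
Lncenc1 in every library of SNRNP70-AID cells: total RNA and polyA RNA in FPKM, and SLAM-seq in spike-in scaled T>C reads (points: libraries; bars: means; error bars: SD; n = 3). Libraries with IAA lie below those without IAA on chromatin in all 3 panels, by means of 48.4 against 93.9 FPKM, 72.8 against 213 FPKM and 194 against 531 scaled reads, while total RNA of cytoplasm overlaps.

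**Figure D4:**
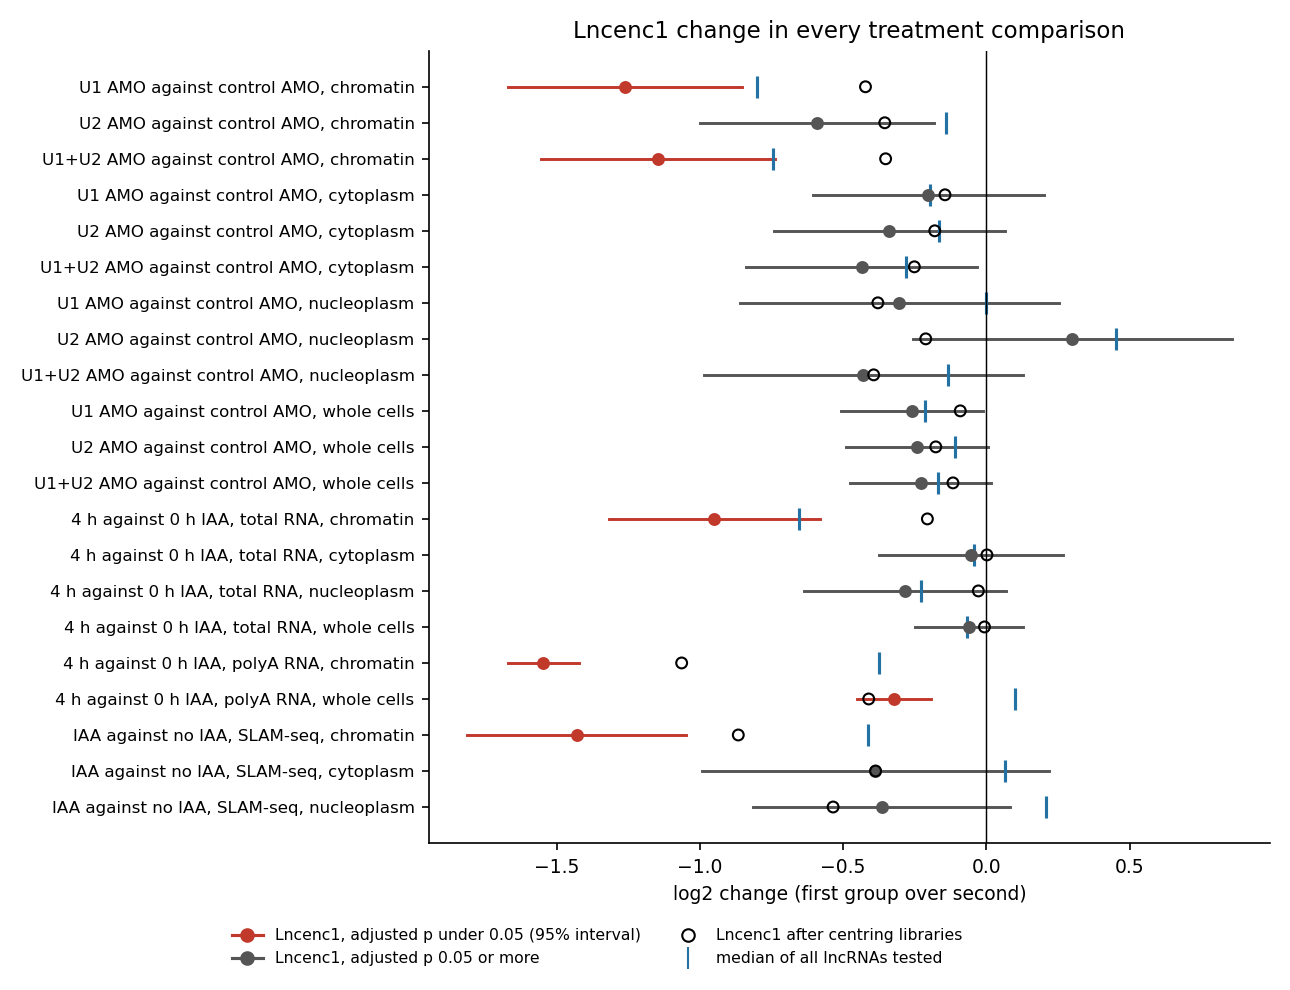
Log2 change of Lncenc1 in each treatment against its control (filled points, with 95% intervals; red where the limma adjusted p was under 0.05), the same after centring libraries on their medians (open circles) and the median of all lncRNAs tested (blue ticks). The red points are chromatin with U1 AMO (-1.26), with U1+U2 AMO (-1.15) and with IAA in total RNA (-0.95), polyA RNA (-1.55) and SLAM-seq (-1.43), and whole-cell polyA RNA (-0.32).

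Other ESC lncRNAs were read with Lncenc1 from a list of Platr genes, Panct transcripts, Tunar and Eprn, of which 22 others were measured in the AMO and AID total RNA tables. Platr genes are transcripts named for pluripotency-associated expression. On chromatin with U1 AMO, 15 of the 22 fell and 7 did not pass, where 51.8% of all lncRNAs tested fell; their median change was -1.08, against -0.80 for all. After centring 6 fell and 1 rose (median -0.24), while 145 of all lncRNAs fell and 226 rose. Platr14 had 13.7 ± 0.906 FPKM with U1 AMO and 39.4 ± 1.55 FPKM with control AMO (log2 -1.51, adjusted p = 3.06e-05), and Platr4 had 4.43 ± 0.887 and 18.7 ± 1.78 FPKM (-2.04, adjusted p = 2.41e-05). Platr15, 1 of the 7 that did not pass, had 21.0 ± 1.99 FPKM with U1 AMO and 25.3 ± 3.49 FPKM with control AMO (-0.26, adjusted p = 0.254). With U1+U2 AMO 17 of the 22 fell (median -1.17), where 49.2% of all lncRNAs fell and the median was -0.74. With U2 AMO 5 fell, namely Platr4, Platr6, Platr14, Platr21 and Platr28 (median -0.59), where 5.02% of all fell and the median was -0.14. After centring 5 fell with U1+U2 AMO (median -0.37), while 103 of all lncRNAs fell and 188 rose. With U2 AMO 4 then fell (median -0.35), while 47 of all fell and 100 rose. Summed over the 22, chromatin levels were 74.65 to 79.69 FPKM with U1 AMO, 115.77 to 145.19 FPKM with U2 AMO and 70.08 to 79.02 FPKM with U1+U2 AMO, against 157.02 to 181.24 FPKM with control AMO.

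At 4 h of IAA, 21 of the 22 fell on chromatin in total RNA (median -1.53, against -0.65 for all lncRNAs, of which 46.7% fell), and Platr8 did not pass (-0.87, adjusted p = 0.126). Among the 23 with Lncenc1, its change ranked 17 from the strongest. Platr4 had 5.02 ± 1.52 FPKM at 4 h and 35.3 ± 7.92 FPKM at 0 h (log2 -2.81, adjusted p = 4.19e-05). In whole-cell total RNA, where Lncenc1 did not pass, 5 of the others fell: Platr4, Platr15, Platr21, Platr22 and Panct2, where 6.5% of all lncRNAs fell. The count called there in either direction, 149 in all, was 58 to 98 when any 1 of the 6 libraries was left out. In polyA RNA of chromatin 13 of 21 others fell (median -1.28, against -0.37 for all, of which 36.8% fell), and Lncenc1 ranked 5 of 22 from the strongest. Platr14 had 32.05 ± 4.44 FPKM at 4 h and 64.9 ± 0.886 FPKM at 0 h (-1.03, adjusted p = 0.000129). In whole-cell polyA RNA, Platr4, Platr6, Platr15 and Platr21 fell along with Lncenc1, where 7.05% of all lncRNAs fell. In SLAM-seq of chromatin 7 of 10 others tested fell (median -1.37, against -0.41 for all, of which 33.6% fell), and Platr14 had values of 63.5 ± 12.0 with IAA and 215 ± 20.1 without (-1.65, adjusted p = 4.01e-05). After centring, 13 of 22 others fell on chromatin in total RNA (median -0.78), 12 of 21 fell and 1 rose in polyA RNA (median -0.79), and 4 of 10 fell in SLAM-seq (median -0.80). Of all lncRNAs, 210 then fell and 265 rose in total RNA, 201 and 232 in polyA RNA, and 65 and 96 in SLAM-seq. These counts describe the list beside all lncRNAs, and the difference between the 2 was not tested.

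**Figure D5:**
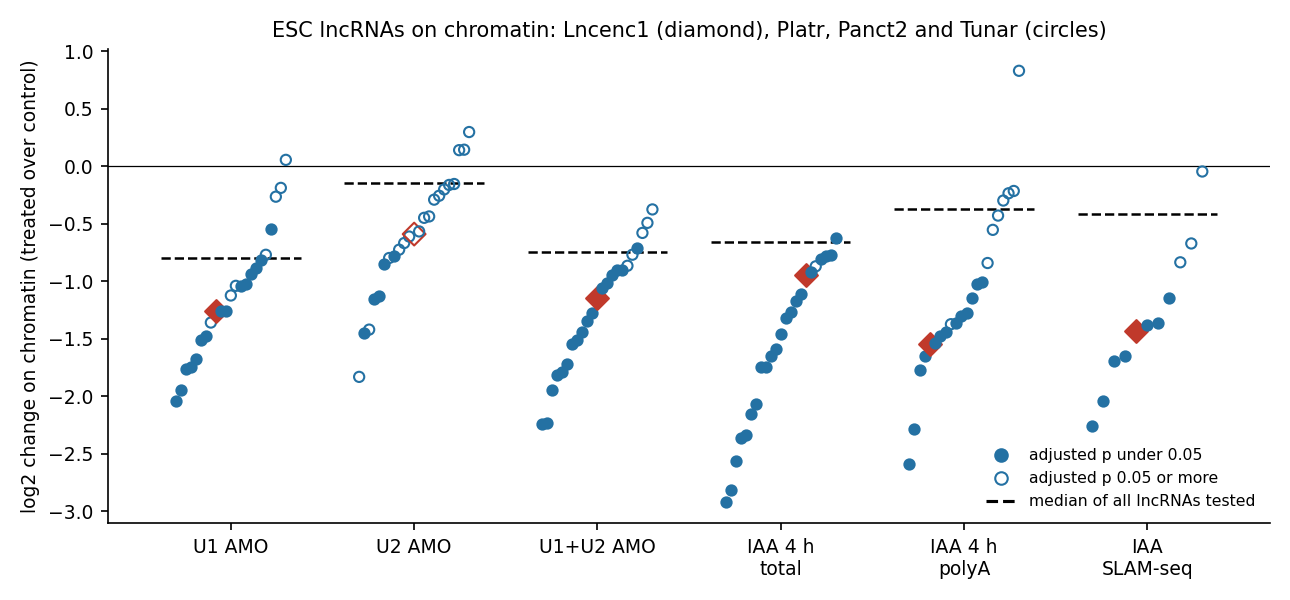
Log2 change on chromatin of Lncenc1 (red diamonds) and of the other listed ESC lncRNAs (blue circles), sorted within each of 6 treatments against its control; filled symbols passed a limma adjusted p of 0.05, and dashed lines are the median of all lncRNAs tested. Lncenc1 lies within the range of the others in each, at -1.26 with U1 AMO (median of the others -1.08) and at -0.95 with 4 h of IAA in total RNA (median of the others -1.53).

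The lncRNAs whose levels ran most like those of Lncenc1 were found by Pearson r on the log2 scale over all libraries of a table, among 638 lncRNAs with at least median level. In the 47 AMO libraries these were Gm43041 (r = 0.97), Gm43558 (0.97), Platr14 (0.97), 4930566F21Rik (0.96) and Gm43078 (0.96), where the median lncRNA had r = 0.53. In the 24 AID total RNA libraries they were Gm14820, 4933404O12Rik, 1110002L01Rik and Tmem134 (each 0.95) and 2410003L11Rik (0.94), against a median of -0.36. Tmem134, like Hist2h2bb above, counts as a lncRNA here only because the authors' lncRNA values include it, and its class was not checked. The libraries share their fractions and scaling, so these values describe mainly the order of the fractions. After centring, Platr14 was the most like in the AMO table (0.97) and Platr17 in the AID table (0.99). The likeness did not carry over for all: in AID libraries Gm43041 had r = -0.50 with Lncenc1, and on chromatin it had 470.4 ± 71.7 FPKM at 4 h of IAA and 414 ± 27.2 FPKM at 0 h. Platr14 had r = 0.72 there and 14.0 ± 1.75 FPKM on chromatin at 4 h, against 30.4 ± 5.07 FPKM at 0 h.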

How the data were processed

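The members and lists were chosen with earlier results of these data known. The authors deposited total and polyA RNA as FPKM, which the file headers give as spike-in scaled in each fraction, naming no scaling for whole cells. For SLAM-seq they deposited a signal, namely T>C read counts scaled by spike-in per the file headers. CASAVA, Cufflinks, TopHat and build mm10 are named in the submitters' processing notes; their versions and the annotation: not given in the sources used here.

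From these, log2(value + pseudocount) was taken, with a pseudocount near the 10th percentile of nonzero values (AMO 0.2, the other FPKM values 0.1, SLAM-seq 8); fold changes on this scale understate changes of low genes. A lncRNA was tested where at least 3 libraries reached the pseudocount. Comparisons used limma 3.58.1 under R 4.3.3 (eBayes with trend), with Benjamini-Hochberg adjustment over all lncRNAs tested. Treatments were compared in 1 fit per fraction over all treatments. Each shift came from 1 fit over all the fractions it draws on. Fractions of cells without U1 or U2 AMO or IAA were compared in 1 fit of the control libraries of those fractions. Scripts were tested on simulated data. Shares were tested by exact permutation. Whole reads behind the SLAM-seq values were recovered from their steps (100% of values within 0.1 read) and 17 of 18 libraries were tested in edgeR 4.0.16, an alternative added after seeing the data; chromatin library 2 without IAA had too few low values and was left out.

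In AMO chromatin and nucleoplasm every pair of same-numbered libraries deviated together with r over 0.1 (0.284 to 0.565 on chromatin, at least 0.100 in nucleoplasm). Numbers were taken to pair them there, and elsewhere not every pair passed this cut. The cut is narrow: AMO cytoplasm had r down to 0.0788, yet same-numbered libraries matched best in each comparison. In nucleoplasm, U1+U2 AMO against U1 AMO had 2 of 3 such best matches. One control AMO column of values, numbered 3, whose name gives no fraction, was not used, which left 101 columns. TT-seq, ChIP-seq and ChIRP-seq samples were not analysed here. Named were Lncenc1, its nearest lncRNAs in level and pattern, and part of the ESC lncRNAs that passed on chromatin. Alternatives were a pseudocount 10 times as large, no filter on low values, centring on library medians, the replicate block and leaving out each library.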

Additional observations from a re-analysis of the deposited data

Results flagged for a closer look

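In 4 comparisons the change of Lncenc1 on chromatin differed from its change in the soluble fractions or, for polyA RNA, in whole cells. This was tested as the difference of the 2 changes in limma. For polyA RNA the 2 changes are on unlike scales, since only chromatin is named as spike-in scaled. The difference was -1.01 on the log2 scale for U1 AMO (adjusted p = 0.00729), -0.78 for 4 h against 0 h of IAA in total RNA (adjusted p = 0.00528), -1.22 for chromatin against whole cells in polyA RNA (adjusted p = 3.03e-07) and -1.05 for IAA in SLAM-seq (adjusted p = 0.0207). Each had the same sign as the median difference over all lncRNAs tested (-0.66, -0.57, -0.49 and -0.52). After centring, limma calls were lost for U1 AMO (adjusted p = 0.709), IAA in total RNA (0.403) and SLAM-seq (0.490), and kept for polyA RNA (0.000685). The SLAM-seq call was also lost in 3 of 18 fits that left out 1 library. In SLAM-seq chromatin was total RNA and the soluble fractions were polyA RNA.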

How the results depend on the processing

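Of 47 results on Lncenc1, 25 kept direction and side of the threshold under every alternative run, and 499 of 548 single alternatives did. The changes on chromatin with U1 AMO, U1+U2 AMO, polyA RNA and SLAM-seq were among those that did. The largest effect came from centring libraries on their medians, which removes a change common to most lncRNAs. It ended the calls of U1 AMO against U2 AMO on chromatin (-0.067), U1+U2 AMO against U2 AMO in nucleoplasm (-0.18), IAA on chromatin in total RNA (-0.21) and the shifts of U1 AMO (-0.17), IAA in total RNA (-0.17) and SLAM-seq (-0.36), and it made that of SLAM-seq nucleoplasm (-0.53). It turned the sign of U1+U2 AMO against U2 AMO on chromatin (0.0030), U2 AMO in nucleoplasm (-0.21), U1 AMO against U2 AMO (0.086) and U1+U2 AMO against U1 AMO (-0.026) in whole cells, IAA in cytoplasm (0.0022), and chromatin against nucleoplasm in control AMO (-0.78) and 0 h AID cells (-1.65). With the replicate block, calls were made for U2 AMO on chromatin (-0.59, adjusted p = 0.0041) and U1 AMO against U2 AMO in nucleoplasm (-0.60, adjusted p = 0.0469). The block also made calls for the U1+U2 AMO shift (-0.72, adjusted p = 0.0450) and IAA in nucleoplasm (-0.28, adjusted p = 0.0451). For these last 2, not every same-numbered pair passed the narrow cut used for pairing. The block changed no other call on Lncenc1. A larger pseudocount ended the call of U1+U2 AMO against U2 AMO in nucleoplasm (-0.70, adjusted p = 0.0590) and made that of the U1+U2 AMO shift (-0.69, adjusted p = 0.0291).

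Leaving out 1 library gave -0.75 to -0.46 for U2 AMO, -0.80 to -0.52 for U1 AMO against U2 AMO, -0.0031 to 0.22 for U1+U2 AMO against U1 AMO and -0.68 to -0.40 for U1+U2 AMO against U2 AMO on chromatin. It gave -0.21 to 0.022 for U1+U2 AMO against U2 AMO in cytoplasm, -0.33 to 0.028 for U1+U2 AMO against U1 AMO and -0.78 to -0.66 for U1+U2 AMO against U2 AMO in nucleoplasm. In whole cells it gave -0.061 to 0.018 for U1 AMO against U2 AMO, -0.0015 to 0.078 for U1+U2 AMO against U1 AMO and -0.022 to 0.061 for U1+U2 AMO against U2 AMO. It gave -0.82 to -0.62 for the U1+U2 AMO shift, -0.11 to 0.034 for IAA in cytoplasm, -1.19 to -0.91 for the SLAM-seq shift and -0.045 to 0.14 for chromatin against nucleoplasm in 0 h AID cells. Counts of lncRNAs called moved with centring from 715 to 371 for U1 AMO on chromatin, 666 to 291 for U1+U2 AMO on chromatin, 253 to 13 for the U1 AMO shift, 249 to 68 for the IAA shift in total RNA, 229 to 30 in polyA RNA and 24 to 11 in SLAM-seq, 570 to 354 for U1 AMO and 495 to 290 for U1+U2 AMO against U2 AMO on chromatin, 361 to 209 for the last in nucleoplasm, and 1019 to 464 for chromatin against nucleoplasm in control AMO cells. A larger pseudocount moved the shifts to 408 for U1 AMO, 473 for IAA in total RNA and 63 in SLAM-seq, and U2 AMO on chromatin to 164 from 98; the block moved this last to 189, and IAA in whole-cell total RNA to 83 from 149. Leaving out 1 library gave counts of 104 to 309 for the U1 AMO shift, 148 to 260 for the IAA shift in total RNA, 15 to 59 for the SLAM-seq shift, 40 to 93 for U2 AMO on chromatin and 58 to 98 for IAA in whole-cell total RNA. The causes were not tested.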
